A study of Mus musculus with 16 samples.

Results

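Basophils, mast cells and eosinophils, the scarce granulocytes of bone marrow, were followed through 9 marker genes of 57132 in the count table. Of these, 6 were taken as basophil and mast cell genes (Mcpt8, Prss34, Cpa3, Ms4a2, Fcer1a and Hdc) and 3 as eosinophil genes (Epx, Ccr3 and Il5ra). Whether other marrow cells also expressed them was not tested. The 9 genes were chosen by symbol as granule protease, IgE receptor and eosinophil genes, with earlier results of these data known. All 9 passed the filter on low counts.

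The samples were 16 RNA sequencing libraries of mouse marrow, with 2 libraries in each of 8 groups. Wild-type (WT) C57BL/6 mice, males of 8 to 10 weeks, and Nrf2-/- (KO) mice, bred from Nrf2+/- parents, received PBS, BMX-001, 5-fluorouracil (5-FU) or both drugs. NRF2 is a transcription factor of the oxidative stress response, and 5-FU is a chemotherapy drug that blocks thymidylate synthase. Mice received 20 mg/kg of 5-FU at the start and again on day 7, and 0.5 mg/kg of BMX-001 from 24 hours ahead of the 5-FU and every 3 days afterwards. They were killed on day 10. The dosing of the groups given BMX-001 alone was taken to follow the same scheme, since the labels give no other. Age and sex were not given for the KO mice, and the deletion is in every cell of the animal rather than in marrow alone. The labels do not say whether the 2 libraries of a group came from different animals, so p-values measure only the spread between these libraries, which may be technical. In whole marrow, fewer cells of a type and less RNA per cell cannot be told apart.

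All 3 cell types arise in the marrow from progenitors that depend on GATA family transcription factors. Eosinophils mature there under IL-5 and store cationic proteins and a peroxidase in their granules, whereas basophils leave as short-lived blood cells and mast cells complete their maturation in tissues. Basophils and mast cells carry the high-affinity IgE receptor, whose crosslinking releases histamine and granule proteases.

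Library totals ran from 27305707 to 39909188 counts. Nfe2l2, the gene for NRF2, stood at 102 to 122 normalised CPM (counts scaled to a common library total, with TMM factors) in WT and at 6.48 to 16.7 CPM in KO libraries. KO BMX-001 replicate 1 stood apart from the other libraries, at 111.9 on the first principal component, where the others lay between -31 and 7.6. Its summed level of 5 neutrophil precursor markers was 588 CPM, where the other 15 libraries had 2007 to 3242 CPM. Malat1, an RNA retained in the nucleus, reached 12210 CPM in it and at most 5345 CPM in the others. Results that rest on this library are given with and without it, the latter as the 15-library fit.

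The labelled tissue was checked against the defining markers of these cells. Basophil markers were present in every library, with Mcpt8, which is known as a basophil protease in the mouse, at 51.3 to 94.4 CPM and Cd200r3 at 3.92 to 7.53 CPM. Itga2 stood at 5.92 to 26.0 CPM, while Il4 was low, at 0.346 to 2.01 CPM. Eosinophil markers were also present, with the granule protein gene Prg2 at 828 to 2823 CPM and the surface lectin gene Siglecf at 10.1 to 21.3 CPM. The markers of mature connective tissue mast cells were at or near 0. Tpsab1 (a tryptase) and Mrgprb2 had 0 counts in all 16 libraries. Tpsb2 and Mcpt4 did not exceed 0.0272 and 0.0282 CPM. Cma1, the chymase gene, did not exceed 0.362 CPM. Kit, a mast cell marker that progenitors also express, was not low, at 36.6 to 114 CPM. The genes that basophils and mast cells share therefore cannot be assigned to mature mast cells from these markers.

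The genes differed widely in abundance. Levels between genes are compared as CPM per kilobase of exon, here as the mean ± SD of the 8 WT libraries. Epx, the eosinophil peroxidase, stood at 129 ± 34.9 and Prss34, a basophil and mast cell tryptase-like protease, at 110 ± 15.05, with overlapping ranges. Mcpt8 followed at 71.3 ± 11.6, below every WT value of Prss34. Hdc, the histidine decarboxylase that makes histamine, stood at 22.7 ± 3.38, Cpa3, the carboxypeptidase of mast cell and basophil granules, at 17.5 ± 2.12, and Ccr3, the eotaxin receptor, at 11.8 ± 1.92. The range of Cpa3 overlapped that of Hdc above it and that of Ccr3 below it. Fcer1a, the IgE-binding alpha chain of the receptor, at 5.61 ± 0.99, overlapped its partner Ms4a2, the signal-amplifying beta chain, at 4.09 ± 0.43. Il5ra, the alpha chain of the IL-5 receptor, was lowest at 2.67 ± 0.41. Counts per library ran from 148 to 304 for Fcer1a, the least counted gene, and from 3970 to 36152 for Epx, the most counted.

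**Figure D1:**
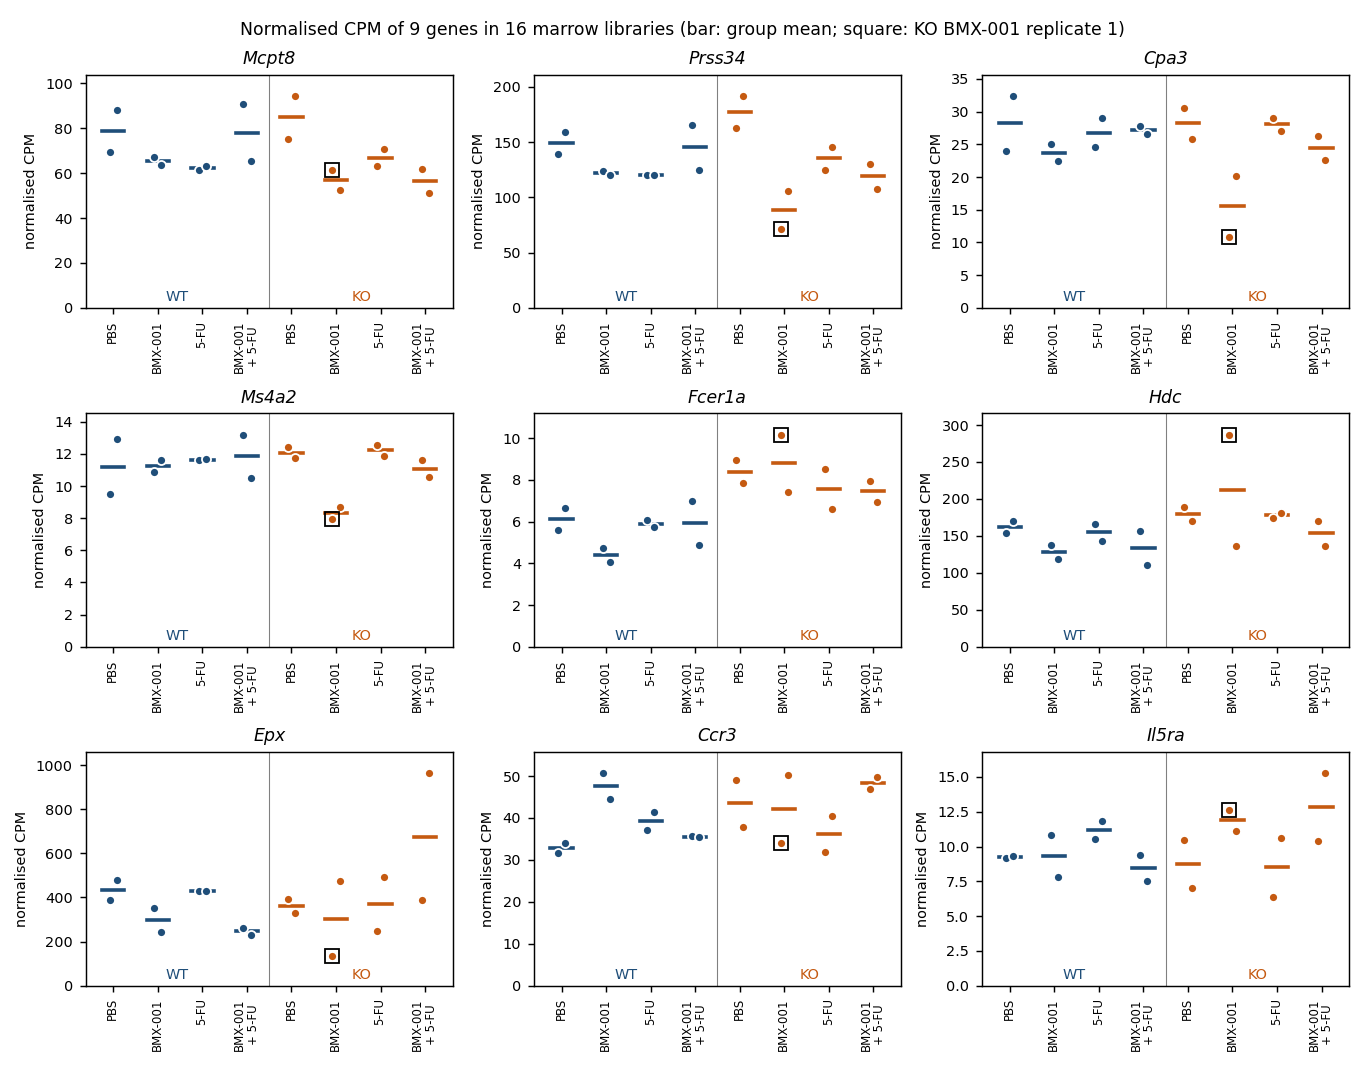
Each panel plots the normalised CPM (vertical axis, from 0) of 1 gene in the 16 libraries by treatment group, WT in blue and KO in orange. Points are libraries, bars are means of 2 libraries, and a square marks KO BMX-001 replicate 1. Fcer1a runs from 4.09 to 7.01 CPM in WT and from 6.61 to 10.2 CPM in KO, and Epx reaches 962 CPM in 1 KO library.

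The promoters of 6 genes are shown because these genes form the pairs whose levels correlated most closely within the basophil and mast cell group (given further on). Each sequence is the 250 bases before the RefSeq start site on the gene's strand, in build GRCm38.p6, 5′ to 3′. Capitals mark GATA motifs on either strand. The motif searched was AGATAA with its variant AGATAG, and likewise TGATAA with its variant TGATAG. A capital run of TTATCT is a match on the opposite strand.
Mcpt8 (chr14:56085198-56085447, minus strand): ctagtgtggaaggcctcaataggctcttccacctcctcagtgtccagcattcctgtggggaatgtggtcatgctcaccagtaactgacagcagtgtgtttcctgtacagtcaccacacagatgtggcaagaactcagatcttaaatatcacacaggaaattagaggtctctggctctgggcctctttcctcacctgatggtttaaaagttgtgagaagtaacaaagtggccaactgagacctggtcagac
Prss34 (chr17:25298144-25298393, plus strand): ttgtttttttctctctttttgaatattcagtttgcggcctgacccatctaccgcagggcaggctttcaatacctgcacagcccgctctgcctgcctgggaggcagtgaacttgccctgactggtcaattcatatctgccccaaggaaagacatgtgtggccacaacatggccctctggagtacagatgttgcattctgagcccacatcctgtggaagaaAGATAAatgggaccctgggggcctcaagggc
Cpa3 (chr3:20242182-20242431, minus strand): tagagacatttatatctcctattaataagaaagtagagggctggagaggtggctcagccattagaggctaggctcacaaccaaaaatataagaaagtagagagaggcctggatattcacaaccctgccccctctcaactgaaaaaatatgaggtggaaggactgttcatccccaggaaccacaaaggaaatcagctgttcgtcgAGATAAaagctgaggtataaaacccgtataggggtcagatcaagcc
Ms4a2 (chr19:11623720-11623969, minus strand): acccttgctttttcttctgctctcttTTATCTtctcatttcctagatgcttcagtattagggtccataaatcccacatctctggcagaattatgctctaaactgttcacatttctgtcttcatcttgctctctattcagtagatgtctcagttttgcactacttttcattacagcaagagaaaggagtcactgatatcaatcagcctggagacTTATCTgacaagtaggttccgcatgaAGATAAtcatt
Fcer1a (chr1:173227230-173227479, minus strand): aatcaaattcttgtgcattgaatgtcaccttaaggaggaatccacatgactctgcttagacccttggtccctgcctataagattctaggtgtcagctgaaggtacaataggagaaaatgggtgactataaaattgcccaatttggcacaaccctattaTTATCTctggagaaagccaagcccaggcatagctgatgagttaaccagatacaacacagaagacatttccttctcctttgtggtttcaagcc
Hdc (chr2:126618679-126618928, minus strand): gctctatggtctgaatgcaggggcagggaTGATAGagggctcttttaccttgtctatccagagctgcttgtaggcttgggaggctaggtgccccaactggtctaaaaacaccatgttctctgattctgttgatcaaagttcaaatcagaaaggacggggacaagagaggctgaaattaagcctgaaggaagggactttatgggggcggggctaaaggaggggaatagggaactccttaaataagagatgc

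A GATA motif was present in the 250 bases of 7 of the 9 genes, against 26.5% of 32841 RefSeq promoters of the same length. Ms4a2 had 3 matches, with first bases at -224, -37 and -11 relative to the start, and Ccr3 had matches at -64 and -30. The single matches lay at -31 in Prss34, -46 in Cpa3, -92 in Fcer1a, -221 in Hdc and -74 in Il5ra. Mcpt8 and Epx held no match in this window. The core of the antioxidant response element to which NRF2 binds (TGACNNNGC, both strands) was found in Fcer1a, Il5ra and Ccr3, which is 3 of 9 against 10.2% of all promoters. E-boxes (CACGTG or CATGTG) were found in Fcer1a and Prss34, against 17.6% of promoters, and the STAT motif TTCNNNGAA in none of the 9, against 7.02%. The RefSeq starts used for Fcer1a and Ccr3 were not found within the first 200 bases of the GENCODE M21 transcripts. A match is a description of letters, and nothing about binding was measured.

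In KO against WT marrow, averaged over treatments, Fcer1a had the largest difference in size among the 9 genes and the smallest adjusted p. In WT its levels were 5.61 and 6.66 CPM with PBS, 4.73 and 4.09 with BMX-001, 6.07 and 5.72 with 5-FU, and 7.01 and 4.89 with both drugs. In KO they were 8.93 and 7.84 CPM with PBS, 10.2 and 7.42 with BMX-001, 8.53 and 6.61 with 5-FU, and 7.96 and 6.95 with both drugs. Every KO library lay above both WT libraries of its treatment with PBS, BMX-001 and 5-FU, while with both drugs the ranges met, at 6.95 against 7.01 CPM. Such an order was not counted over all genes. The Fcer1a means were 5.596 ± 0.99 CPM in WT and 8.05 ± 1.15 CPM in KO (SD, n = 8 each). The log2 fold change was 0.53 ± 0.11 (SE), with an edgeR adjusted p of 0.083 over all 19152 genes tested, which misses the threshold of 0.05.

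None of the 9 genes was called in this comparison with all 16 libraries, where 0.178% of all genes were called. Without KO BMX-001 replicate 1, where 1.39% of 19694 genes were called, Fcer1a was the single one of the 9 called, at 0.47 ± 0.10 (adjusted p 0.0266). That call in turn held in 7 of 14 fits that left out 1 further library, with adjusted p-values from 0.0162 to 0.0878 and fold changes from 0.41 to 0.54. DESeq2 on all 16 libraries also called Fcer1a, at 0.53 with an adjusted p of 0.00198, where it called 2.08% of all genes. Leaving out any 1 of the 16 libraries kept its fold change between 0.47 and 0.60. Most of these 16 fits did not call it.

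The partner chain Ms4a2 did not differ in the same way. Its log2 fold change was -0.09 ± 0.08 (adjusted p 0.658), with 11.5 ± 1.21 CPM in WT and 10.9 ± 1.72 CPM in KO (SD, n = 8 each). Fcer1a counts per 100 Ms4a2 counts were 35.1 to 58.9 in WT libraries (median 50.3) and 55.6 to 128 in KO libraries (median 68.2). Without KO BMX-001 replicate 1 the KO values were 55.6 to 85.1 (median 67.7). WT and KO ratios thus overlapped only between 55.6 and 58.9. Fcer1g, which encodes the gamma chain that this receptor shares with others, differed by 0.05 ± 0.06 (adjusted p 0.728) and was named after its values were seen.

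The granule protease genes showed no genotype difference beyond their spread when averaged over treatments. Log2 fold changes of KO against WT were -0.12 ± 0.09 for Mcpt8 (adjusted p 0.583), -0.08 ± 0.09 for Prss34 (0.72) and -0.17 ± 0.11 for Cpa3 (0.535). Mcpt8 stood at 71.2 ± 11.6 CPM in WT and 66.3 ± 13.98 CPM in KO, and Prss34 at 134 ± 18.4 and 130 ± 37.3 CPM (SD, n = 8 each). Within treatments the order differed. Both KO libraries lay above both WT libraries for Prss34 with PBS and with 5-FU, and below them with BMX-001. For Mcpt8 and Cpa3 they lay below with BMX-001 and with both drugs. In the remaining groups the ranges of these 3 genes overlapped. Neither order was counted over all genes. Hdc differed by 0.32 ± 0.14 (edgeR adjusted p 0.365), and by 0.16 ± 0.09 in the 15-library fit (0.474). Its KO mean of 181 ± 47.1 CPM includes 287 CPM in KO BMX-001 replicate 1, against 145 ± 21.6 CPM in WT (SD, n = 8 each).

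All 3 eosinophil genes had KO means above WT means, none beyond the spread. Ccr3 differed by 0.14 ± 0.09 (adjusted p 0.514), Il5ra by 0.12 ± 0.13 (0.728) and Epx by 0.25 ± 0.28 (0.726). Across the 9 genes the median log2 fold change was 0.12, with 5 of 9 positive, against a median of 0.004 over all genes tested. In the PBS groups alone none of the 9 was called, where 0.0261% of all genes were called with 16 libraries and 0.102% with 15. There Fcer1a differed by 0.45 ± 0.22 and Ccr3 by 0.41 ± 0.18, both with an edgeR adjusted p of 1. Ccr3 had 31.5 and 34.0 CPM in WT against 49.0 and 37.9 CPM in KO.

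**Figure D2:**
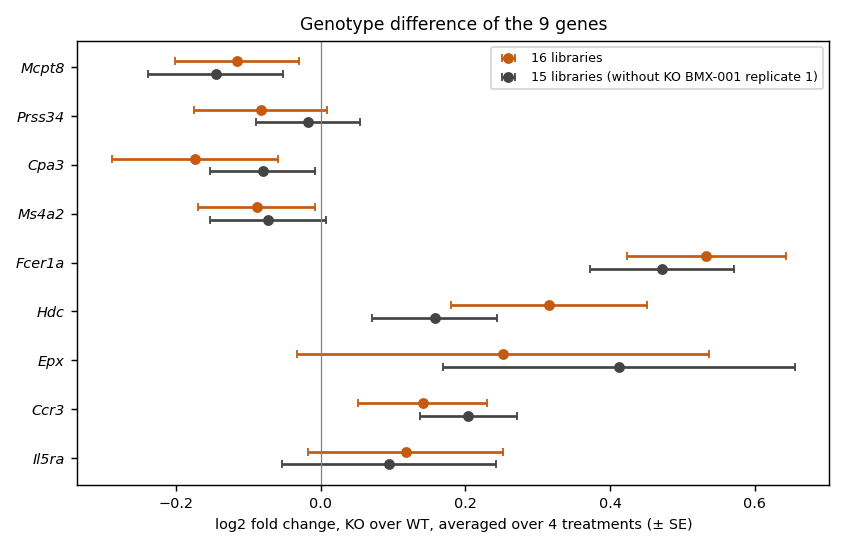
The horizontal axis is the log2 fold change of KO over WT averaged over the 4 treatments, with the edgeR standard error as bars, for each of the 9 genes. Orange is the fit on 16 libraries and grey the fit without KO BMX-001 replicate 1. Fcer1a lies at 0.53 and 0.47 in these fits, and Epx has the widest bars.

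Markers of other marrow cells were summed in each library, with no test of the sums. The summed level of 6 stem and progenitor markers was 69.4 to 83.8 CPM in WT, 75.9 to 110 CPM in KO libraries other than KO BMX-001 replicate 1, and 51.0 CPM in that library. The summed level of 6 B lineage markers was 583 to 876 CPM in WT, 415 to 618 CPM in those KO libraries and 682 CPM in KO BMX-001 replicate 1. For both lists the WT and KO ranges overlapped, and KO BMX-001 replicate 1 lay below the WT libraries for the first list and among them for the second. No marker of either list was at 0 in any library. Lists of other cell types were summed too, and their WT and KO ranges also overlapped. T and NK cell markers summed to 62.9 to 88.6 CPM in WT and 61.1 to 90.1 CPM in KO without KO BMX-001 replicate 1. Stromal markers summed to 414 to 647 CPM in WT and 197 to 797 CPM in those KO libraries. The part of any list in the Fcer1a difference was not tested.

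Genes that act with these receptors were read from lists of upstream and downstream partners. Of 14 genes of IgE receptor signalling, none was called in KO against WT with 16 libraries. Their median log2 fold change was -0.04, with 10 negative. The most abundant were Syk, the kinase that the receptor's gamma chain recruits (554 ± 58.3 CPM in WT, 495 ± 77.8 CPM in KO; SD, n = 8 each), and Lyn, the kinase that starts the signal (276 ± 17.9 and 262 ± 27.1 CPM). In the 15-library fit, which called 1.39% of all genes, 2 of the 14 were called: the adaptor gene Gab2 rose by 0.25 ± 0.05 (adjusted p 0.0277) and the kinase gene Btk fell by 0.17 ± 0.04 (0.0341).

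Of 18 growth factor receptor and transcription factor genes of these lineages, none was called with 16 libraries, where 0.178% of all genes were. In the 15-library fit, which called 1.39% of all genes, 3 rose and none fell. All 3 encode chains of cytokine receptors that eosinophils and basophils use. Csf2rb, the common beta chain of the receptors for IL-3, IL-5 and GM-CSF, rose by 0.25 ± 0.04 (adjusted p 0.0126), and with 16 libraries differed by 0.28 ± 0.06 (0.0747). Csf2rb2, its IL-3 specific counterpart, rose by 0.33 ± 0.07 (0.0247), and Csf2ra, the GM-CSF receptor alpha chain, by 0.23 ± 0.05 (0.0374). Csf2rb and Csf2rb2 are near-identical copies, so the split of reads between them is uncertain. Csf2rb stood at 133 to 178 CPM in WT and 162 to 218 CPM in KO libraries. Neutrophils and monocytes carry these receptors too. Gata2 and Gata1 differed by -0.02 ± 0.06 (0.919) and -0.12 ± 0.10 (0.62) with 16 libraries. Of 16 other mast cell and basophil genes tested, none was called with 16 libraries. In the 15-library fit Kit, the stem cell factor receptor that progenitors also express, rose by 0.21 ± 0.05 (0.0437), and none fell. Kit was at 36.6 CPM in KO BMX-001 replicate 1 and at 78.4 to 114 CPM elsewhere. The genes called in the 15-library fit were named after their values were seen.

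With 5-FU, the IgE receptor and eosinophil genes did not move beyond their spread in either genotype. In the groups given 5-FU, with or without BMX-001, against those not given it, none of the 9 was called in WT, where 0.0574% of all genes were called, or in KO, where 1.9% were. In WT the log2 fold changes ran from -0.15 ± 0.40 for Epx to 0.19 ± 0.16 for Fcer1a. In KO they ran from -0.24 ± 0.19 for Hdc (adjusted p 0.53) to 0.59 ± 0.40 for Epx (0.464), with Cpa3 at 0.32 ± 0.16 (0.331). The Epx value was 0.20 without KO BMX-001 and 5-FU replicate 2 and 1.201 without KO BMX-001 replicate 2 (adjusted p 0.0527). Without the latter library Cpa3 rose by 0.59 (0.000908) and Hdc fell by 0.45 (0.0222), in a fit that called 29.7% of all genes. In the 15-library fit Cpa3 was at 0.13 and Hdc at 0.08, neither called. Among the marker lists, 4 of 6 erythroid genes fell in the same KO comparison, among them Epb42, a red cell membrane protein gene, by 0.72 ± 0.08 (adjusted p 0.000717). The medians of the 9 genes were -0.01 in WT and 0.02 in KO, against 0.005 and 0.009 over all genes. The interaction of genotype with 5-FU called no gene (0% of all genes, with 1300 genes at an unadjusted p under 0.05 and 27 called by DESeq2), and Epx had an interaction of 0.74 ± 0.57 (0.72). That interaction was 0.35 without KO BMX-001 and 5-FU replicate 2 and 1.35 without KO BMX-001 replicate 2 (0.879 and 0.109). In the 15-library fit none of the 9 was called either, where 1.94% of all genes were called in WT and 3.49% in KO.

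The basophil proteases Mcpt8 and Prss34 were lower with 5-FU alone than with PBS, by amounts that did not pass the test. Mcpt8 was at 69.5 and 88.2 CPM with PBS and at 61.6 and 63.1 CPM with 5-FU in WT, and at 75.3 and 94.4 CPM with PBS and at 63.1 and 70.7 CPM with 5-FU in KO. Its log2 fold change was -0.34 ± 0.17 in both genotypes, with adjusted p-values of 0.39 in WT and 0.575 in KO. Prss34 was at 140 and 159 CPM with PBS and at 121 and 121 CPM with 5-FU in WT, a log2 fold change of -0.31 ± 0.18 (0.468). In KO it was at 163 and 192 CPM with PBS and at 125 and 146 CPM with 5-FU, at -0.39 ± 0.18 (0.546). The 5-FU libraries lay below both PBS libraries of their genotype for either gene, an order not counted over all genes. Called genes made up 0.00522% of all genes in WT and 0.454% in KO, and none of the 9 was among them. The 15-library fit called 6.87% and 2.82% of all genes, and again none of the 9.

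Most libraries given a drug had less Mcpt8 and Prss34 than the PBS libraries. The 4 PBS libraries of both genotypes held 69.5 to 94.4 CPM of Mcpt8, and 10 of the 12 libraries given any drug lay below the lowest of them (51.3 to 90.7 CPM, median 63.1). For Prss34 the PBS libraries held 140 to 192 CPM and again 10 of the 12 others lay below (71.0 to 165 CPM, median 122). The WT group given both drugs did not follow this order. It had 90.7 and 65.3 CPM of Mcpt8 against 69.5 and 88.2 CPM with PBS, and 165 and 125 CPM of Prss34 against 140 and 159 CPM. These comparisons share their PBS libraries. Mcpt8 and Prss34 also correlated with each other (r = 0.78, and 0.95 without KO BMX-001 replicate 1), so they are not 2 separate observations. How many of all genes show this order was not counted. None of the other 7 genes showed this order to the same extent: the number of drug libraries below the lowest PBS library was 0 for Ccr3, 1 for Il5ra, 2 for Ms4a2, 3 for Fcer1a, 4 for Cpa3, 5 for Epx and 6 for Hdc.

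In KO marrow, 4 basophil and mast cell genes had lower levels with BMX-001 than with PBS, by amounts that missed the threshold with all 16 libraries. Prss34 was at 71.0 and 106 CPM with BMX-001 against 163 and 192 CPM with PBS, a log2 fold change of -1.002 ± 0.19. Cpa3 was at 10.8 and 20.2 CPM against 30.6 and 25.9 CPM, at -0.86 ± 0.23. Mcpt8 was at 61.2 and 52.3 CPM against 75.3 and 94.4 CPM, at -0.58 ± 0.17, and Ms4a2 at 7.96 and 8.72 CPM against 12.4 and 11.7 CPM, at -0.53 ± 0.16. For each of these 4 genes both BMX-001 libraries lay below both PBS libraries, an order not counted over all genes. The adjusted p-values were 0.0811, 0.0855, 0.0883 and 0.0909 in edgeR, so none was called. In this comparison 0.00522% of all genes were called although 5859 of 19152 had an unadjusted p under 0.05.

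Without KO BMX-001 replicate 1, the first value of each pair, the difference was smaller for Prss34 and Cpa3, larger for Mcpt8 and little changed for Ms4a2. In that fit, with the remaining library taken to vary like the other groups, the fold changes were -0.74 ± 0.17 for Prss34, -0.48 ± 0.17 for Cpa3, -0.70 ± 0.22 for Mcpt8 and -0.47 ± 0.19 for Ms4a2, with adjusted p-values of 0.436 to 0.532. In that edgeR fit 0% of all genes were called, with 1772 at an unadjusted p under 0.05. With this library and without replicate 2, 4 of the 9 genes passed the test in a fit that called 44.6% of all genes, a share near that of the 9. Prss34 fell, with a fold change of -1.35 ± 0.18 (adjusted p 5.4e-05), as did Cpa3 at -1.405 ± 0.18 (1.66e-05) and Ms4a2 at -0.63 ± 0.19 (0.0136). Hdc rose by 0.65 ± 0.19 (0.0187). DESeq2 on all 16 libraries called the 4 genes, in a comparison in which it called 1803 genes, or 11.5% of all genes. Hdc, Epx, Ccr3 and Fcer1a changed sign when the library was left out.

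In WT the same 4 genes differed by -0.29 to 0.01 with BMX-001. Prss34 was at 124 and 120 CPM against 140 and 159 CPM with PBS (-0.29 ± 0.18), Mcpt8 differed by -0.27 ± 0.17, Cpa3 by -0.25 ± 0.23 and Ms4a2 by 0.01 ± 0.16, each with an adjusted p of 0.997. Ccr3 differed by 0.54 ± 0.18 (adjusted p 0.961), with 50.6 and 44.4 CPM against 31.5 and 34.0 CPM. Fcer1a had its lowest levels of the 8 groups here, at 4.73 and 4.09 CPM (-0.48 ± 0.22, adjusted p 0.963). Over all genes 0% were called, with 977 at an unadjusted p under 0.05 and 0 called by DESeq2. Whether BMX-001 acted differently in the 2 genotypes was not tested.

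When BMX-001 was added to 5-FU, the eosinophil genes gave opposite signs in the 2 genotypes. In WT Epx was at 261 and 232 CPM with both drugs against 428 and 428 CPM with 5-FU (-0.80 ± 0.57, adjusted p 0.998), and Il5ra differed by -0.40 ± 0.27. In KO Epx was at 388 and 962 CPM with both drugs against 249 and 492 CPM with 5-FU (0.87 ± 0.57, adjusted p 1), and Il5ra differed by 0.59 ± 0.27 and Ccr3 by 0.42 ± 0.18. The Epx ranges were apart in WT and overlapped in KO. The KO value of Epx rests on replicate 2 of the group given both drugs, since without it the value was 0.07 ± 0.62. Without KO 5-FU replicate 2 it was 1.42. Il5ra in KO was at 0.27 without KO 5-FU replicate 1 and at 0.99 without KO 5-FU replicate 2. None of the 9 was called in either genotype, where 0% of all genes were called, with 753 and 499 genes at an unadjusted p under 0.05 in WT and KO, and 0 and 6 called by DESeq2. In the 15-library fit none of the 9 was called in either genotype, and 0.00508% of all genes were called in KO. A fit of the WT groups compared alone called Epx, at -0.79 with an adjusted p of 0.006, where 0.00564% of all genes were called. That fit took the spread from these 2 groups alone, in which the 5-FU libraries were nearly equal, at 428 and 428 CPM.

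Epx varied most among the 9 genes. Its levels spanned 7.25-fold over the 16 libraries, and the SD of its log2 CPM was 0.63, which 3.29% of 12324 genes exceeded. The median gene had an SD of 0.20. Without KO BMX-001 replicate 1 the SD of Epx was 0.52, again exceeded by 3.29% of genes (12297). The highest level, 962 CPM in KO BMX-001 and 5-FU replicate 2, was 2.48 times both the level in replicate 1 of its group and the median of the other 15 libraries. The lowest, 133 CPM, was in KO BMX-001 replicate 1.

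Most other eosinophil genes were also highest in the library where Epx was highest. Of 10 eosinophil genes with counts, 8 were highest in KO BMX-001 and 5-FU replicate 2. Epx is itself among these 8, since the library was chosen by it, and the share of all genes highest there was not counted. The others include Prg2, the major basic protein gene (2823 CPM against 828 to 1835 CPM elsewhere), Ear1, an eosinophil ribonuclease (517 CPM against 151 to 325 CPM), and Siglecf (21.3 CPM against 10.1 to 17.5 CPM). The exceptions were Ccr3, at 49.8 CPM, and the lipoxygenase gene Alox15, at 148 CPM. Over the 10 genes this library stood 1.32 to 2.48 times above the median of the other 15. The low end was shared too: 4 genes were lowest in KO 5-FU replicate 1 and 4 in WT BMX-001 and 5-FU replicate 2. KO BMX-001 replicate 1 broke the pattern, with Epx at its minimum while Prg2 was at 1494 CPM and Il5ra at 12.6 CPM. Il5, the cytokine gene, did not exceed 0.0283 CPM.

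**Figure D3:**
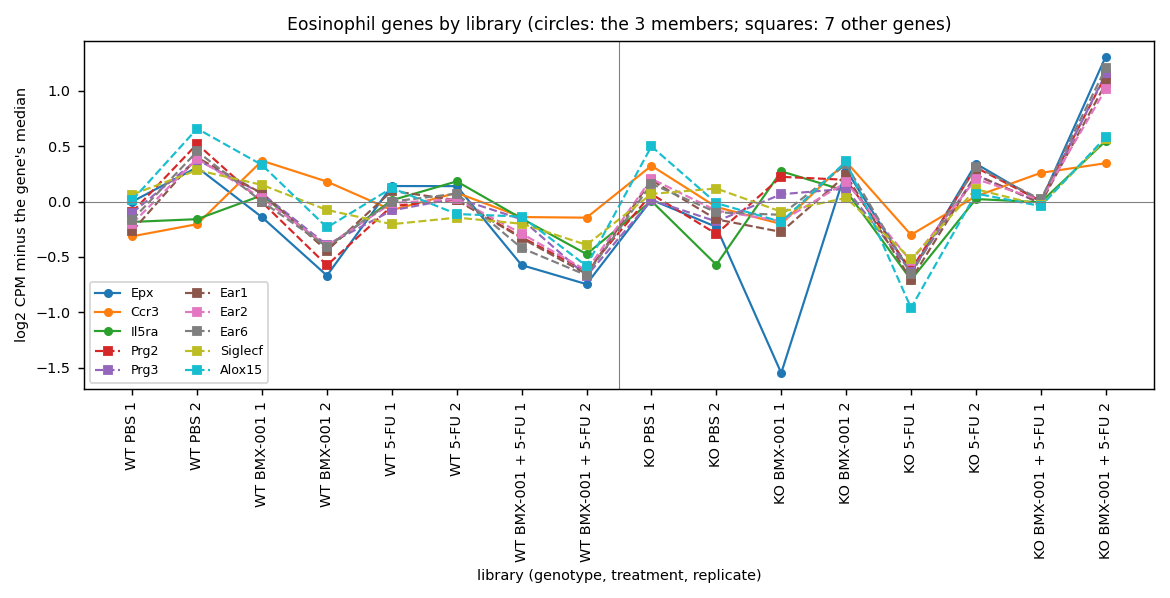
The vertical axis is log2 CPM minus the gene's median over the 16 libraries, for the 3 eosinophil genes Epx, Ccr3 and Il5ra (circles, solid lines) and 7 other eosinophil genes (squares, dashed lines), with libraries along the horizontal axis and lines joining the values of a gene. Most genes peak in KO BMX-001 + 5-FU replicate 2, where Epx is at 962 CPM, and Epx drops the most in KO BMX-001 replicate 1, where 7 of the 10 genes lie below their median.

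The 7 other eosinophil genes tested passed the test in none of the 11 comparisons with 16 libraries and shared the sign of Epx in those given here. In KO against WT all 7 were positive (median 0.25, against 0.004 over all genes), in the PBS groups all 7 were negative (median -0.11, against -0.01). WT PBS replicate 2 was the highest of the 4 PBS libraries for all 7 genes, and the KO PBS mean was above WT PBS replicate 1 for 6 of them. BMX-001 added to 5-FU gave 7 negative in WT (median -0.45) and 7 positive in KO (median 0.76), with all-gene medians of -0.0005 and -0.004. The positive KO values include KO BMX-001 and 5-FU replicate 2, and the genes of a list are not independent of each other.

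Levels over the 16 libraries were correlated between all 36 pairs of the 9 genes, on log2 CPM with 100000 permutations and Benjamini-Hochberg adjustment over the 36. Of these, 5 pairs passed, all positive and all among the 6 basophil and mast cell genes. The 15 pairs of those 6 genes ranged widely, from r = -0.45 to 0.85 with a median of 0.18. Without KO BMX-001 replicate 1 they ranged from 0.16 to 0.95, with a median of 0.56. Cpa3 and Ms4a2 had r = 0.85 (rho 0.81, permutation p 2.0e-05, adjusted p 0.00072). Mcpt8 and Prss34 had r = 0.78 (rho 0.89, permutation p 0.00023, adjusted p 0.00276). Fcer1a and Hdc had r = 0.79 (rho 0.74, permutation p 0.00016, adjusted p 0.00276). Prss34 also correlated with Cpa3 (r = 0.81, rho 0.70, permutation p 0.00071) and with Ms4a2 (r = 0.75, rho 0.71, permutation p 0.00074), both with an adjusted p of 0.00533. For rho the permutation p was 0.00016, 1.0e-05 (the smallest 100000 permutations can give), 0.00145, 0.00353 and 0.00325 in the same order. Without the 2 libraries farthest from the median of the first gene, r was 0.66, 0.66, 0.68, 0.73 and 0.64. These permutations exchange libraries between groups, so differences between groups count towards r. For deviations from the group means, given with no test, r was 0.57, 0.48, 0.80, 0.66 and 0.56 in the same order.

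The library that stood apart shaped several of these values. Without KO BMX-001 replicate 1, r was 0.95 for Mcpt8 and Prss34, 0.78 for Cpa3 and Ms4a2, 0.75 for Fcer1a and Hdc, 0.58 for Prss34 and Cpa3, and 0.56 for Prss34 and Ms4a2. Fcer1a had a higher mean in KO than in WT, by an amount that missed the edgeR threshold with 16 libraries. The 5 pairs were therefore also computed within each genotype, over 8 libraries of the 4 treatments with exact permutation. These pairs were picked from the 36 by their permutation p over the same libraries. Neither the exact p-values nor their adjustment allow for that choice, so they are descriptions and no independent check. Mcpt8 and Prss34 had r = 0.98 in WT (exact p 0.00027) and 0.74 in KO (exact p 0.0372). Fcer1a and Hdc had r = 0.82 in WT (exact p 0.0134) and 0.77 in KO (exact p 0.0252), the latter 0.47 without KO BMX-001 replicate 1. Cpa3 and Ms4a2 had r = 0.56 in WT (exact p 0.15) and 0.93 in KO (exact p 0.00015). Prss34 with Cpa3 and with Ms4a2 had r = 0.56 and 0.48 in WT (exact p 0.156 and 0.223), and with the 2 farthest libraries left out r was -0.18 and -0.96, so in WT those relations rest on 2 libraries. In KO they had r = 0.85 and 0.83 (exact p 0.00756 and 0.00608), and 0.62 and 0.63 without KO BMX-001 replicate 1. Without that library the KO values were 0.99 for Mcpt8 and Prss34 and 0.96 for Cpa3 and Ms4a2. Spearman's rho ran from 0.24 to 0.95 over these 10 relations. Adjusted over the 10, the relation of Mcpt8 with Prss34 in KO had an exact permutation p of 0.0531, and the 6 others with a raw p under 0.05 stayed under it.

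The 3 eosinophil pairs had r between 0.46 and 0.50, and between 0.42 (Epx and Ccr3) and 0.84 (Epx and Il5ra) without KO BMX-001 replicate 1. Between the eosinophil genes and the basophil and mast cell genes the 18 pairs ranged from -0.48 to 0.45, none passing, and from -0.46 to 0.25 without that library. Fcer1a and Ms4a2, the chains of 1 receptor, had r = -0.12 over 16 libraries and 0.24 over 15.

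**Figure D4:**
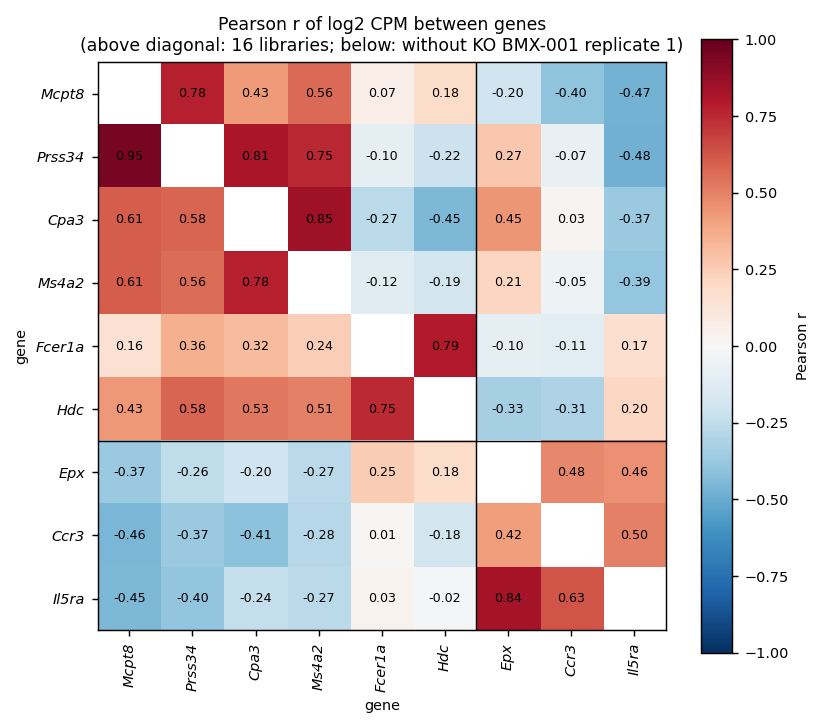
Pearson r of log2 CPM between the 9 genes, above the diagonal over 16 libraries and below it without KO BMX-001 replicate 1, with colour from -1 to 1 and lines separating the 6 basophil and mast cell genes from the 3 eosinophil genes. The cell for Mcpt8 and Prss34 reads 0.78 above and 0.95 below the diagonal, and cells between the cell types stay between -0.48 and 0.45.

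Genes with the most similar pattern were sought among 12148 others whose log2 CPM averaged 1 or more, by Pearson r over the 16 libraries with the mean log2 CPM of each group of genes. For the 3 eosinophil genes the first 5 were Ear1 (0.93), Ear2 (0.90), Ear6 (0.90), Prg3 (0.84) and Prg2 (0.80), all eosinophil granule genes, and without KO BMX-001 replicate 1 the same 5 led with r of 0.92 to 0.95. The Ear genes are near-identical copies, so their counts may share reads. For the 6 basophil and mast cell genes the first 5 were Rab32 (0.91), Saraf (0.86), Fam72a (0.85), Atxn10 (0.84) and Tmem38b (0.84), none of them from the lists of mast cell and basophil genes. Without that library these 5 ranked 1, 3, 6, 2 and 9. Correlations picked as the highest of so many genes are descriptions only.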

How the data were processed

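The deposited table holds whole-number counts for each Ensembl gene, 1 column for each of 16 libraries, and 0 sample columns were left unused. Per the submitters' processing notes the build was GRCm39 and the tools included featureCounts, Salmon 1.4.0, DESeq2 1.38.3 in R 4.3.0, FastQC 0.12.1 and Trim Galore 0.6.4. Which of these made the counts, the annotation and the use of strand are not given there. Symbols were joined by Ensembl ID (51880 of 57132 IDs), and all 123 symbols of the gene lists matched. Exon lengths came from GENCODE M21 and promoters from RefSeq, both of build GRCm38, so no coordinates other than those of the promoters are given. By that annotation Mir6949 lies within Mcpt8 and Mir7007 within Cpa3, on the same strand.

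Counts were filtered with filterByExpr (19152 genes left), scaled with TMM factors and fitted as 8 group means with edgeR 4.0.16 (robust quasi-likelihood, 8 residual degrees of freedom) in R 4.3.3. In each of 11 comparisons p-values were adjusted over all genes tested (Benjamini-Hochberg), and a gene under 0.05 counts as called. All adjusted p-values of genes are edgeR's unless DESeq2 (1.42.0) is named. Levels are TMM-normalised CPM, and correlations used log2 CPM with a prior count of 2. Correlations and figures used Python 3.11.15 with scipy 1.17.1. The edgeR fit was tested on counts simulated for KO against WT, averaged over treatments. Of 19152 genes 200 were changed by 2-fold, and it called 189 of these and 17 others. No simulated library was made to stand apart. Smaller changes, such as that of Fcer1a, and comparisons of 2 groups were not simulated. Alternatives were DESeq2, its size factors, no filter, the replicate number as a block, the groups compared alone, and leaving out each library. Replicates of a group differed by more than sampling noise (chi-square per degree of freedom 8.09 to 130).

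The members and lists were chosen with earlier results of these data known. Genes named were the 9 members, Nfe2l2, up to 3 called genes or the 2 most abundant of a list, and the 5 genes most like each group of members.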

Additional observations from a re-analysis of the deposited data

Results flagged for a closer look

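In 18 sets of libraries (each of the 9 genes in the 8 WT and the 8 KO libraries), a single library far from the rest was looked for, which chance alone gives in about 1 of 20 sets. It was found in 2. Hdc was at 287 CPM in KO BMX-001 replicate 1, against 136 to 188 CPM in the other KO libraries. Epx was at 962 CPM in KO BMX-001 and 5-FU replicate 2, against 133 to 492 CPM in the other KO libraries.

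For 2 genes, BMX-001 with 5-FU against 5-FU alone gave opposite directions in the genotypes with no overlap of the libraries in either. Mcpt8 was higher in WT (90.7 and 65.3 CPM against 61.6 and 63.1 CPM) and lower in KO (61.9 and 51.3 CPM against 63.1 and 70.7 CPM, log2 fold change -0.24). Ccr3 was lower in WT (35.6 and 35.4 CPM against 37.2 and 41.4 CPM) and higher in KO (46.9 and 49.8 CPM against 31.8 and 40.5 CPM, log2 fold change 0.42). These differences between the genotypes were not tested. Such an order was not counted over all genes, so it cannot be read as particular to these 2 genes.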

How the results depend on the processing

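With 2 libraries per group, the SE of a comparison of 2 groups ran from 0.16 for Ms4a2 to 0.57 for Epx, and Fcer1a had at most 304 counts in a library. The number of the 9 genes called was 0 in each of the 11 comparisons and changed as follows. With no filter on low counts it was 3 in KO against WT over treatments, 3 for BMX-001 against PBS in KO, and 1 each for BMX-001 added to 5-FU in KO and in WT, for 5-FU given in KO and for the interaction, in fits that called 2.57%, 10.7%, 0.401%, 0.105%, 5.24% and 0.591% of all genes. With DESeq2 it was 1 and 4 in the first 2 of these. With only the groups compared it was 1 for BMX-001 added to 5-FU in WT. Leaving out libraries gave 0 to 3 for KO against WT, 0 to 4 for BMX-001 against PBS in KO, 0 to 2 for 5-FU given in KO and 0 to 1 for the interaction. The upper ends arose on leaving out KO BMX-001 replicate 2, so that its group held only the library that stood apart. Those fits called 22.1%, 44.6%, 29.7% and 18% of all genes, so the counts are no result about the 9 genes. Over all genes, calls in KO against WT were 34, and 338 with DESeq2, 879 with no filter and 273 without KO BMX-001 replicate 1. For BMX-001 against PBS in KO they were 1, 1803, 3651 and 0. The causes of these changes were not tested.

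Signs turned in few results, none of them called with 16 libraries and the filter. Of these, Hdc passed without KO BMX-001 replicate 2 for BMX-001 against PBS in KO (adjusted p 0.0187) and for 5-FU given in KO (0.0222), and Epx with no filter in KO against WT (0.0465). In fits without 1 or 2 libraries, KO against WT ranged from -0.052 to 0.54 for Epx, from -0.17 to 0.036 for Prss34 and from -0.0085 to 0.20 for Il5ra. BMX-001 against PBS in KO ranged from -0.18 to 0.25 for Fcer1a, -0.40 to 0.65 for Hdc, -1.47 to 0.38 for Epx and -0.38 to 0.21 for Ccr3, and 5-FU given in KO from -0.45 to 0.077 for Hdc. The Epx value of -0.052 arose without KO BMX-001 replicate 2. BMX-001 against PBS in KO was -0.07 for Fcer1a without KO PBS replicate 2 and 0.14 for Ccr3 without KO PBS replicate 1. Without KO BMX-001 replicate 1 it was -0.18 for Fcer1a, -0.40 for Hdc, 0.38 for Epx and 0.21 for Ccr3, and 5-FU given in KO was 0.077 for Hdc. Fits that left out that library and 1 further library, chosen after seeing the data, gave the positive Prss34 and negative Il5ra values.

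Replicate numbers did not pair the samples: of 28 pairs of groups, 6 had a correlation of same-numbered deviations over 0.1 and 8 under -0.1 (-0.39 to 0.20). With the replicate block the number of the 9 genes called was 0 in every comparison, and Fcer1a in KO against WT had an adjusted p of 0.0654.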
